A study of Mus musculus with 4 samples.

Results

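Transcript ratios of 39 genes for the assembly of peroxisomes and for their enzymes were followed in mouse liver, out of 19087 genes measured. The members were named by function, as 13 Pex genes, 15 genes of beta-oxidation and its transport steps, 3 of ether lipid synthesis and 8 others, and all 39 had at least 1 probe whose annotation gave that single gene symbol (74 probes in all). Peroxisomes are single-membrane organelles that take in folded enzymes from the cytosol. In the liver they shorten very-long-chain and branched fatty acids, make the first intermediates of ether lipids, oxidise glycolate and urate, and break down the hydrogen peroxide that their oxidases release. Fatty acids shortened there leave as acyl-carnitines for the mitochondria, and in rodents the nuclear receptor PPARA raises the number of peroxisomes and many of their beta-oxidation transcripts.

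Each of 4 two-colour arrays set liver RNA of 1 mouse carrying Wrn, the RecQ helicase of the premature ageing disorder Werner syndrome, with a nonfunctional helicase domain and treated with resveratrol, a plant polyphenol, against liver RNA of an untreated wild-type mouse. All animals were labelled as male C57Bl/6 mice aged 9 months with free access to food. A different mutant was used on each array, whereas wild-type animal 2 served arrays 1 and 3 and wild-type animal 4 served arrays 2 and 4, so the 4 ratios are not fully independent and p-values measure the spread between these arrays only. Genotype and treatment differ together in every ratio and cannot be told apart, and the dose and length of treatment are not stated in the labels.

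Ratios are log2 values as the authors deposited them, and a value below 0 likely means less transcript in the treated mutant. That direction rests on the series title and the channel order alone. The mutant RNA was labelled with Cy5 on the first pair of arrays and with Cy3 on the other pair, and whether the deposited ratios of arrays 3 and 4 had already been turned to the same biological direction is not stated. Correlations over all probes were 0.19 between arrays 1 and 2, 0.21 between arrays 3 and 4, and from -0.18 to 0.11 between arrays of opposite dye. With a spatial trend over the layout subtracted, the correlations between arrays of opposite dye were 0.02, 0.09, 0.10 and 0.18, and the trends of arrays 1 and 3, the pair at -0.18, correlated at -0.61. With arrays 3 and 4 turned, 0 of 19087 genes had an adjusted p under 0.05 in limma (1518 before adjustment), Ehhadh averaged 0.33 rather than -3.64, and a value shared by all 4 arrays as deposited would be an effect of the dye. Everything that follows holds for the orientation as deposited.

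In that orientation 1 of the 39 genes, Ehhadh, was lower at an adjusted p under 0.05 in limma, a call that 0.168% of all genes received, and 0 were higher, a call that 0.0786% received. That fit left out the wild-type animal shared by arrays 1 and 3 and by arrays 2 and 4. With the animal as a random block (estimated correlation -0.37), 9 members were lower, against 0.576% of all genes, and 2 were higher, against 0.44%. These were Ehhadh, Ech1, Abcd2, Crot, Pxmp4, Acaa1a, Hsd17b4, Pex11a and Eci2, and Hao1 and Pecr. A correlation below 0 narrows the errors of this fit. The 2 arrays of each animal also carried opposite dyes, so the estimate cannot separate the shared animal from the dye. Each p-value given below as with the block carries this limit. At an unadjusted p under 0.05, 13 members were lower, against 3.55% of all genes, and 6 were higher, against 3.1%. Ratios were below 0 on all 4 arrays for 14 members (8.16% of all genes) and above 0 on all 4 for 6 (7.69%). The median member stood at -0.13, beside -0.0046 for all genes, since many Pex and ether lipid genes lay near 0 while beta-oxidation genes reached far below it. A mean under -1 with one sign on all arrays was seen for 9 members, namely Ehhadh, Abcd2, Pex11a, Ech1, Acaa1a, Crot, Pxmp4, Eci2 and Hsd17b4, and for 0.791% of all genes. The matching pattern above 1 was seen for Hao1 alone, and for 0.681% of all genes.

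**Figure D1:**
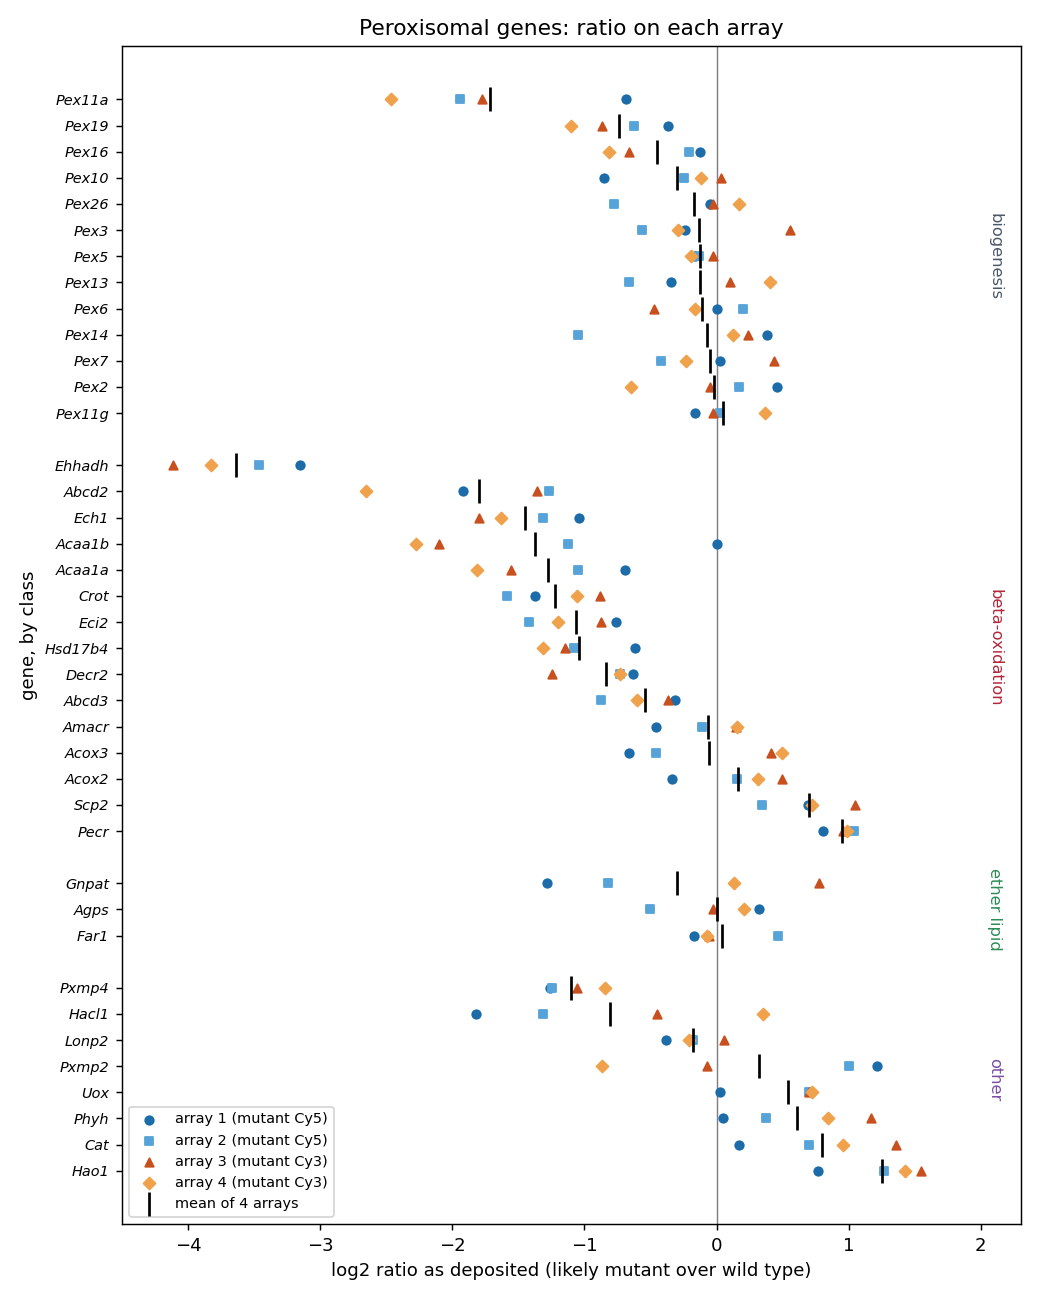
Log2 ratio as deposited (horizontal axis) of each of the 39 genes (vertical axis, grouped by class), with 1 symbol per array and a black tick for the mean of 4 arrays. Ehhadh lies between -4.11 and -3.15, apart from every other member, and the 6 genes at the upper end of their classes, from Uox at 0.54 to Hao1 at 1.25, lie above 0 on all arrays.

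Ehhadh encodes the bifunctional protein that carries out consecutive middle steps of peroxisomal beta-oxidation, and its promoter region is a textbook target of PPARA in rodents. The gene lies on chromosome 16 (21761285 to 21787834, GRCm38.p6) and was read by 1 probe. Its ratio was -3.15 on array 1, -3.46 on array 2, -4.11 on array 3 and -3.82 on array 4. All 4 arrays lay far below 0, at a mean of -3.64 ± 0.42 (SD, n = 4 arrays), or 12.4-fold lower (limma adjusted p = 0.00509). It ranked 12th from the lowest of the 19087 genes. The call was lost without array 2 (adjusted p = 0.137, mean -3.69) or without array 4 (0.0942, mean -3.57), where 0 genes of the whole table passed, although the ratio itself barely moved.

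PPARA binds as a dimer with a retinoid X receptor to a direct repeat of the hexamer AGGTCA with 1 base between the copies, a motif that other receptors also use. Promoter windows of RefSeq (GRCm38.p6, 250 bases before to 50 bases after a gene's start) were searched for 33 members, in 39 windows. Pex2, Pex19, Hsd17b4, Amacr, Abcd2 and Pxmp2 had none in the set searched. Any window of Hsd17b4 was left out before counting, so its absence does not show that RefSeq holds none. The shares of member windows given here cover only the windows searched. On either strand, 0 of the 39 windows held the repeat with no more than 1 of its 12 fixed letters changed, against 0.554% of all 32851 windows. With 2 changed letters allowed, 2 windows held it (5.13%, against 3.86% of all windows). These belonged to Acox2 and Cat, whose mean ratios were 0.16 and 0.80, whereas the closest stretch in the window of Ehhadh had 4 changed letters. The hexamer alone was in 4 windows (10.3%, against 16.3% of all). These windows are short, and distant sites were not searched. Shown for comparison are the window of the member with the lowest ratio, with its closest stretch in capitals, and the 2 windows with the nearest matches, with the match in capitals. Ehhadh lies at chr16:21787785-21788084 on the minus strand, with the stretch starting at -73 from the gene's start. Acox2 lies at chr14:8258790-8259089 on the minus strand, with the match starting at 9. Cat lies at chr2:103485104-103485403 on the minus strand, with the match starting at -204.
Ehhadh: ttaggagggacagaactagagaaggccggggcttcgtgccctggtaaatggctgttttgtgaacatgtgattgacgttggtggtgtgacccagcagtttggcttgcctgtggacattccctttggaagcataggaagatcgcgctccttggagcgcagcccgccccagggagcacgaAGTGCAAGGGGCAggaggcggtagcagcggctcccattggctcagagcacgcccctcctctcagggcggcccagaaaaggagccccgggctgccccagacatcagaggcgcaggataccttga
Acox2: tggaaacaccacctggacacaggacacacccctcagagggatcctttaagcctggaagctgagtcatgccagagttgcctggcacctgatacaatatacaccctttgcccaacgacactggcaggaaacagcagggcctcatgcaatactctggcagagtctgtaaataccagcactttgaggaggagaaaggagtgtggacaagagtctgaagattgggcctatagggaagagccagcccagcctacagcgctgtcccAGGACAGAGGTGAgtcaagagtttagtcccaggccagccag
Cat: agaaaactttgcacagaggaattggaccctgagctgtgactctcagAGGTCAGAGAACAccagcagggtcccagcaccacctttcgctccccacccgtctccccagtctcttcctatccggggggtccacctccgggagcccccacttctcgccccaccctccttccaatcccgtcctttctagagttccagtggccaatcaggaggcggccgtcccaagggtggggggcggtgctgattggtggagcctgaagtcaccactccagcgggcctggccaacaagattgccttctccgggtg

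The other core enzymes of beta-oxidation were spread widely, and without the block 0 of them passed. Acaa1a and Acaa1b encode the thiolases that release acetyl-CoA from straight chains and are close copies on chromosome 9, so their probes may read each other. Acaa1a, with 3 probes of one sign (means -1.43 to -1.11), stood at -0.69, -1.05, -1.56 and -1.81 on arrays 1 to 4, a mean of -1.28 ± 0.50 (SD, n = 4 arrays) that did not pass without the block (adjusted p = 0.154) and passed with it (0.0342). Its 1-probe copy Acaa1b stood at 0.0025, -1.13, -2.10 and -2.27, so that array 1 lay near 0 and arrays 3 and 4 below -2. Medians of the spots at and around that probe in the array layout were 0.11, 0.61, -0.79 and -0.08 on arrays 1 to 4. Hsd17b4, the second bifunctional enzyme, which also serves branched chains and bile acid precursors, was below 0 throughout at -0.62, -1.08, -1.15 and -1.32 (adjusted p = 0.161, with the block 0.0404). Spots around its 1 probe in the array layout had medians of -1.10, -0.24, 0.52 and -0.06, so array 1 lay above its surroundings. The probe's own spot counts in each such median here and below.

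The remaining core enzymes lay near or above 0. Acox2, the oxidase of bile acid intermediates, ranged from -0.34 to 0.50 around a mean of 0.16 ± 0.36, and Acox3, an oxidase of branched acyl-CoA, ranged from -0.66 to 0.49. Scp2, whose longer product is the thiolase for branched chains and whose shorter product is a lipid carrier, was above 0 on every array, at 0.69, 0.34, 1.05 and 0.73 (mean 0.70 ± 0.29, adjusted p = 0.465, n = 4 arrays).

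Auxiliary enzymes prepare unsaturated or branched chains for the cycle. Ech1, a dienoyl-CoA isomerase, came closest to the threshold among them, with -1.04, -1.31, -1.80 and -1.63 on arrays 1 to 4 (mean -1.45 ± 0.34, adjusted p = 0.0703, with the block 0.0139). Eci2, an enoyl-CoA isomerase, stood at -0.76, -1.42, -0.87 and -1.20, and Decr2, the dienoyl-CoA reductase of peroxisomes, at -0.63, -0.73, -1.25 and -0.73. All 3 were below 0 on every array, and Eci2 and Decr2 had an adjusted p of 0.149 and 0.297 (with the block 0.0460 and 0.0784). Around the 1 probe of Decr2 the spots had medians of -1.03, 0.58, 0.60 and -0.39, so array 1 lay above its surroundings. Pecr, a reductase that saturates enoyl-CoA, lay above 0 and varied least of these genes, at 0.81, 1.04, 0.96 and 0.99 (mean 0.95 ± 0.10, 1.93-fold higher, adjusted p = 0.139, with the block 0.0359, n = 4 arrays). Amacr, the racemase that prepares branched acyl-CoA for oxidation, had a mean of -0.07 ± 0.29.

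Transport genes were below 0 on all 4 arrays as well. Abcd2, a membrane transporter that carries very-long-chain acyl-CoA into the organelle, stood at -1.92, -1.27, -1.36 and -2.65, a mean of -1.80 ± 0.64 (adjusted p = 0.0831, with the block 0.0159). Its 2 probes agreed in sign but not in size, with means of -2.50 and -1.10, and 1 of them was at -0.07 on array 2. Abcd3, the abundant membrane transporter also known as PMP70, was closer to 0 at -0.32, -0.87, -0.37 and -0.60, with probe means from -0.86 to 0.07. Crot, which hands shortened chains to carnitine for export, stood at -1.38, -1.58, -0.88 and -1.06 on its arrays (mean -1.22 ± 0.32, adjusted p = 0.105, with the block 0.0226, n = 4 arrays), and both probes were close to that mean.

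Pex genes, whose products build the organelle, mostly lay near 0, with Pex11a the lowest. Pex11a, the inducible member of the family that elongates peroxisomes before they divide, had a mean of -1.71 ± 0.75 (adjusted p = 0.128, with the block 0.0404), with -0.68, -1.94, -1.77 and -2.46 on arrays 1 to 4. It was read by 10 spots of 1 transcript accession. On 8 of them the ratios ran from -1.24 to -0.82 on array 1, from -2.33 to -1.67 on array 2, from -2.50 to -1.33 on array 3 and from -2.36 to -1.80 on array 4, and their mean was -1.83 ± 0.54 (n = 4 arrays). The 2 spots in the last 30 of 532 layout rows departed from these on arrays 1, 3 and 4. They stood at 0.73 and 0.61 on array 1, at -0.28 and -0.09 on array 3 and at -4.89 and -2.97 on array 4. On array 2 both were at -1.63. Medians of the spots around them were 0.43 and 0.78 on array 1, 0.30 and -0.07 on array 3 and -0.46 and -1.17 on array 4. On array 2 these medians were -0.04 and 0.08. The median over the 10 spots gave -1.83 with an adjusted p of 0.0735. Pex11g, a relative of Pex11a, was at -0.17, 0.02, -0.03 and 0.37 on arrays 1 to 4 (mean 0.05 ± 0.23).

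**Figure D2:**
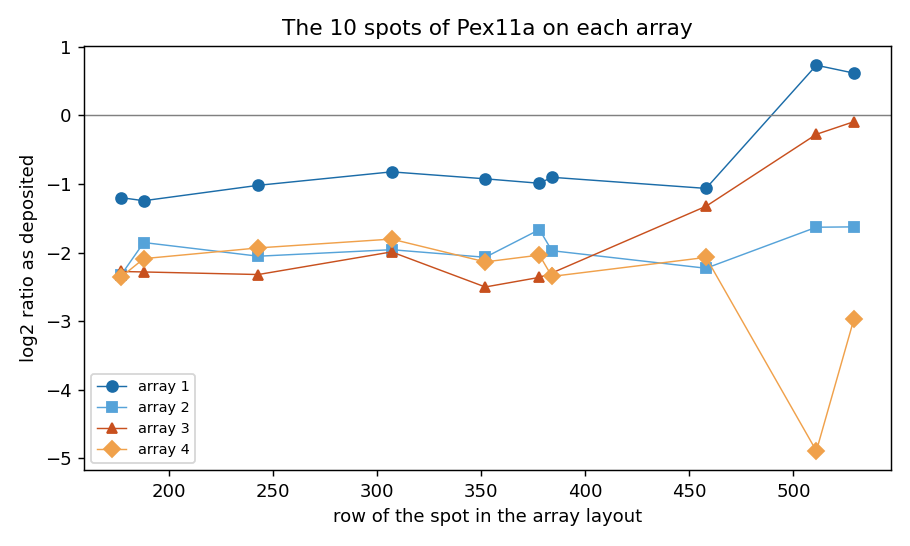
Log2 ratio (vertical axis) of the 10 spots of Pex11a by their row in the array layout (horizontal axis), with 1 line per array. The 8 spots at the left stay below 0 on every array, and the 2 at the right end run from 0.73 on array 1 to -4.89 on array 4.

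The machinery that inserts membrane proteins held the next lowest Pex genes. Pex19, the cytosolic chaperone for peroxisomal membrane proteins, was below 0 on every array, at -0.37, -0.62, -0.87 and -1.10 (mean -0.74 ± 0.32, adjusted p = 0.440), and its 2 probes had means of -0.79 and -0.69. Pex16, a membrane receptor of the same route, stood at -0.13, -0.21, -0.66 and -0.82. Pex3, the docking site of the PEX19 protein, lay on both sides of 0, from -0.56 to 0.56, and its 3 probes disagreed in sign.

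Genes for the import of matrix enzymes had means from -0.30 to -0.02. Pex5, the receptor for the C-terminal targeting signal that most peroxisomal enzymes carry, was the most even of all members, from -0.19 to -0.03 with an SD of 0.07 over 4 arrays. This evenness is that of a mean over 2 probes of opposite sign on each array. On arrays 1 to 4 these stood at -0.39, -0.28, 0.19 and 0.06 and at 0.07, 0.01, -0.24 and -0.45. Pex7, the receptor for the N-terminal signal, ranged from -0.42 to 0.44. Pex13 and Pex14, which form the docking site in the membrane, had means of -0.13 and -0.08, the latter with a single low array at -1.05. The ubiquitin ligase genes Pex2 and Pex10 had means of -0.02 and -0.30, and Pex6 and Pex26, an ATPase that pulls receptors out of the membrane and its anchor, had means of -0.11 and -0.17. Each of these 6 genes had SDs, from 0.29 to 0.66, larger than its mean.

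Ether lipid synthesis starts in peroxisomes with the products of Gnpat, Agps and Far1, an acyltransferase, the enzyme that swaps the acyl for an alkyl chain, and the reductase that supplies fatty alcohol. Agps ranged from -0.51 to 0.32, and Far1 stood at -0.17, 0.46, -0.06 and -0.07 on arrays 1 to 4. Of the 3 genes 0 passed any of the rules above. Gnpat stood at -1.29 and -0.82 on the arrays with the mutant in Cy5 and at 0.77 and 0.13 on those with the mutant in Cy3, so its sign followed the dye. Medians of the spots at and around its 1 probe had the same signs, at -1.02, -0.18, 0.33 and 0.13 on arrays 1 to 4. On array 4 that median was the value of the probe itself.

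Hao1, Cat and Uox, grouped as oxidases and catalase, lay above 0 on all 4 arrays, unlike the acyl-CoA oxidase genes Acox2 and Acox3. Hao1, the liver glycolate oxidase, stood at 0.77, 1.26, 1.54 and 1.43 (mean 1.25 ± 0.34, 2.38-fold higher, adjusted p = 0.105, with the block 0.0223, n = 4 arrays). Cat, the catalase that breaks down hydrogen peroxide, stood at 0.17, 0.70, 1.36 and 0.96, and Uox, the urate oxidase that mice keep and humans have lost, at 0.0291, 0.70, 0.70 and 0.72. Both were nearest to 0 on array 1, and neither passed in either fit (without the block adjusted p = 0.519 and 0.708). The 3 together had means of 0.32, 0.89, 1.20 and 1.04 on arrays 1 to 4. Outside the membership, the oxidase genes Hao2, Ddo, Dao and Pipox had means of -1.40, 0.03, 0.05 and 0.64.

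The alpha-oxidation pair and the membrane proteins were mixed. Phyh, which hydroxylates phytanoyl-CoA in the first step of alpha-oxidation, stood at 0.05, 0.37, 1.17 and 0.85, whereas Hacl1, the lyase of a later step, stood at -1.82, -1.32, -0.45 and 0.35. Pxmp4, a peroxisomal membrane protein gene, was below 0 with little spread, at -1.26, -1.25, -1.05 and -0.84 (mean -1.10 ± 0.20, 2.14-fold lower, adjusted p = 0.108, with the block 0.0238, n = 4 arrays), and both of its probes were near -1.1 in mean. Pxmp2, which encodes a channel of the membrane, was at 1.22 and 1.00 on arrays 1 and 2 but at -0.07 and -0.87 on arrays 3 and 4. Its 1 probe lay in the last 30 layout rows. There the medians of the spots around it were 1.01, 0.06, -0.15 and -1.38 on arrays 1 to 4. Lonp2, the protease of the matrix, had a mean of -0.18 ± 0.18.

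Across classes, beta-oxidation genes were lower than Pex genes on each array. Class means of the 15 beta-oxidation genes were -0.70, -0.86, -0.83 and -0.96 on arrays 1 to 4 (mean -0.84 ± 0.11), and those of the 13 Pex genes -0.16, -0.48, -0.196 and -0.38 (mean -0.30 ± 0.15, SD over 4 arrays). The difference was -0.53 ± 0.11, and -0.70 when class medians were used. Without Pex11a the other 12 Pex genes had a mean of -0.19 ± 0.13. The beta-oxidation mean kept its own lowest gene, Ehhadh at -3.64. The 3 ether lipid genes had a mean of -0.09 ± 0.29 and the 8 others 0.18 ± 0.24, and both had class means on either side of 0. Within the beta-oxidation class, 9 of 15 genes were below 0 on all arrays and 2 above 0 on all arrays, against 4 and 0 of 13 Pex genes, where all genes gave 8.16% below and 7.69% above. No test was made of these class values, since the members were chosen with results of these arrays known.

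**Figure D3:**
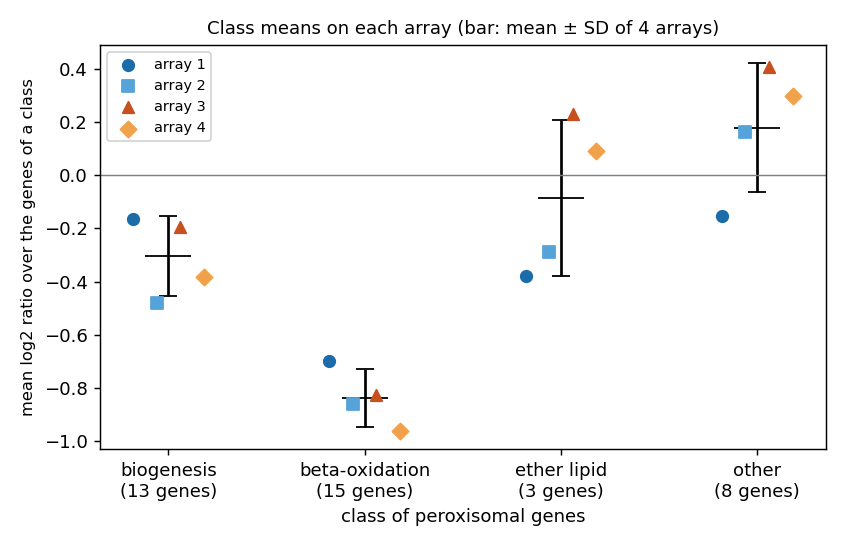
Mean log2 ratio over the genes of a class (vertical axis) for the 4 classes (horizontal axis), with 1 symbol per array and bars for the mean ± SD of 4 arrays. The beta-oxidation means lie between -0.96 and -0.70, below the lowest Pex mean of -0.48.

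**Figure D4:**
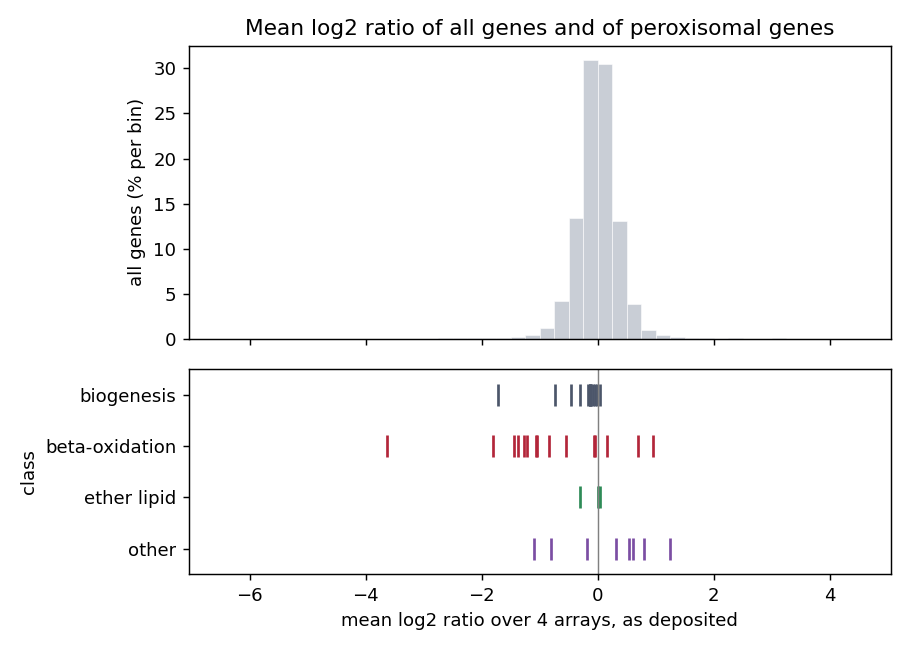
Top, share of all 19087 genes (percent per bin of log2 ratio, mean of 4 arrays) and bottom, 1 tick per peroxisomal gene by class on the same axis. From the 5th to the 95th percentile all genes span -0.545 to 0.53, and 10 of the 15 beta-oxidation ticks lie at or below -0.539. The highest of these 10, Abcd3 at -0.539, lies just inside that span.

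Agreement between the dye orientations differed among members. Means of arrays 1 and 2 and of arrays 3 and 4 had the same sign for 24 of 39 members (61.5%, against 46.1% of all genes), among them Ehhadh at -3.30 and -3.97, Pex11a at -1.31 and -2.12, Crot at -1.48 and -0.97 and Hao1 at 1.02 and 1.48. For 7 members the sign followed the dye on all 4 arrays (Pex13, Pex2, Pex6, Acox3, Amacr, Gnpat and Pxmp2), which is 17.9% of them and 17.4% of all genes. Fitting the dye as a second coefficient in limma gave 0 members and 0 of all genes with an adjusted p under 0.05 for it. Before adjustment it took in 5 members, Acox3, Acaa1b, Gnpat, Hacl1 and Pxmp2, and 1683 genes in all (8.82%).

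**Figure D5:**
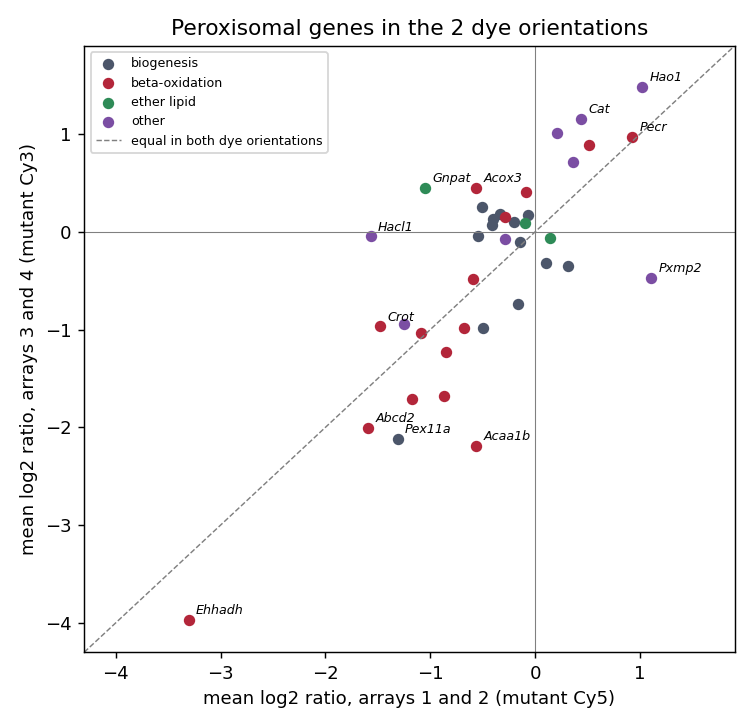
Mean log2 ratio of each peroxisomal gene on arrays 1 and 2, with the mutant in Cy5 (horizontal axis), and on arrays 3 and 4, with the mutant in Cy3 (vertical axis), coloured by class, with a dashed line for equal values. Ehhadh lies near the line at -3.30 and -3.97, and Pxmp2 lies far from it at 1.11 and -0.47.

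Other peroxisomal genes outside the membership were also spread to both sides of 0. Of 43 such genes listed, 35 were measured, and of these 1 fell and 1 rose (0.168% and 0.0786% of all genes). Acot4, a peroxisomal acyl-CoA thioesterase, fell to -2.56 ± 0.24 with values from -2.90 to -2.35 (adjusted p = 0.0100), and Nudt7, which cleaves coenzyme A in the organelle, rose to 2.92 ± 0.69 (adjusted p = 0.0341, n = 4 arrays). At an unadjusted p under 0.05 there were 11 lower (31.4%, against 3.55% of all genes) and 3 higher (8.57%, against 3.1%), and the median of the 35 was -0.15. Hsdl2 at -2.07 and Acot3, another thioesterase gene, at -2.19 were the next lowest, and Idh1, the cytosolic and peroxisomal isocitrate dehydrogenase, at 0.74 and Pipox, an amine oxidase of the organelle, at 0.64 the next highest. Among 10 measured regulators of peroxisome proliferation 0 passed in limma, and 2 had an unadjusted p under 0.05. These were Ppara itself, at -0.33, -0.25, -0.44 and -0.84 (mean -0.46 ± 0.26, adjusted p = 0.750), and the coactivator gene Ppargc1a, at a mean of -0.98 ± 0.51. The highest mean of the 10 was that of Ppard, at 0.39 ± 0.42.

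Whole-series checks bear on these values. Wrn averaged 0.12 ± 0.73 and was above 0 on 2 arrays, and where its probes lie relative to the altered domain is not stated in the labels. Xist, the RNA of the inactive X chromosome, was lower on every array (from -2.66 to -1.62, adjusted p = 0.0400) although all animals were labelled male, and its part in the ratios of peroxisomal genes was not tested. Signal intensities were not used here, so the presence of liver markers could not be checked. Mean ratios of 7 measured hepatocyte markers were -0.00074 to 0.45 by array, although Alb, the albumin gene, stood at 0.86 and 0.81 on arrays 1 and 2 and at -0.75 and -0.89 on arrays 3 and 4. Of 4 measured red blood cell markers 3 were above 0 on every array, with list means of 0.40 to 0.89. Alas2, the haem synthesis enzyme of red cell precursors, rose to 2.45 (adjusted p = 0.0324) while Car2 stood at -1.35. Plin4, a lipid droplet gene and 1 of 5 measured adipocyte markers, fell to -2.02 (adjusted p = 0.0468), whereas Plin1 stood at 0.84, Lep at 0.08, Retn at -0.01 and Adipoq at -0.09. List means were -0.01 ± 0.06 for Kupffer cells, -0.07 ± 0.11 for endothelial, -0.10 ± 0.14 for stellate, 0.05 ± 0.50 for bile duct cells, 0.28 ± 0.48 for lymphocytes, -0.19 ± 0.26 for neutrophils and -0.24 ± 0.23 for adipocytes (SD over 4 arrays). Fewer cells of a type and less RNA per cell cannot be told apart in bulk tissue, and the part of other cells in the ratios was not tested. Array 1 was nearest to 0 of the 4 arrays for 10 of the 14 members below 0 throughout, and SDs over all probes were 0.80, 0.73, 0.90 and 0.66 on arrays 1 to 4.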

How the data were processed

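Liver RNA of 4 resveratrol-treated Wrn mutants and 2 wild-type mice was compared on 4 two-colour arrays. The authors deposited 1 log2 ratio for each probe of an array, made with limma per the submitters' processing notes; the log base, background correction, normalization within arrays, centring and direction were not given in the sources used here, and on a natural log scale folds would be larger. Array medians were 0.01, 0.01, -0.01 and -0.01, and 0 of the values of 43379 probes were missing. GEO's platform annotation gave 33653 probes 1 gene symbol, 56 several and 9670 none. Probes of 1 symbol were averaged to 19087 genes. Each gene was tested against 0 with limma 3.58.1 in R 4.3.3 (intercept only, eBayes with 3.63 prior degrees of freedom, two-sided), with Benjamini-Hochberg adjustment over all genes and a threshold of 0.05. The 4 arrays limit the precision. The fit was tested on simulated data. Promoters came from RefSeq tables, motifs were searched in Python 3.11.15 on both strands.

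Members and lists were chosen with earlier results of these data known. Values are given array by array for members that passed, for those with one sign on all arrays and a mean over 1 in size, for the extremes of each class, and for others where a sentence turns on them. Of other lists, genes past the threshold and some of the extremes are named. Protein sequences, planned for display, were not used here. Alternatives were turning arrays 3 and 4, equal spread, medians over probes, array medians set to 0 and a random block for the wild-type animal. Others were a dye coefficient, probes tested singly and leaving out each array. A spatial trend was also subtracted (running median over 11 x 11 spots, the centre spot included).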

Additional observations from a re-analysis of the deposited data

Results flagged for a closer look

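In 2 of 39 members and 0 of 4 class means a single array was separated from its neighbour by a gap that filled most of the spread, which chance gives about 1 time in 20. The share of members flagged is near that rate. Decr2 was at -1.25 on array 3, against -0.73 to -0.63 on the others. Uox was at 0.0291 on array 1, against 0.70 to 0.72 on the others. Its 2 probes were at -0.29 and 0.35 on array 1, where the spots around them had medians of -1.36 and 0.0040.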

How the results depend on the processing

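With arrays 3 and 4 turned, Ehhadh changed sign to 0.33. Members lower, other peroxisomal genes lower and all genes past the threshold then each numbered 0. Class means became -0.016 for Pex, 0.057 for beta-oxidation and -0.17 for the class of others. Ether lipid means were -0.38 and -0.29 on arrays 1 and 2 and 0.23 and 0.09 on arrays 3 and 4 as deposited. Turned, they lay below 0 on all 4 arrays. In the turned orientation 2 members were lower and 1 higher at an unadjusted p under 0.05, near the shares of all genes (3.68% and 4.27%). A random block for the wild-type animal (consensus correlation -0.37) gave 9 members lower, 2 higher, 5 other peroxisomal genes lower and 194 genes in all. The 9 were Ehhadh, Pex11a, Hsd17b4, Acaa1a, Eci2, Ech1, Abcd2, Crot and Pxmp4, and the 2 were Pecr and Hao1. A correlation below 0 narrows the errors, and arrays of 1 animal also carry opposite dyes. Subtracting the spatial trend gave 6 members lower (Ehhadh, Pex11a, Acaa1a, Ech1, Abcd2 and Crot), 1 higher (Hao1), 2 other peroxisomal genes lower and 125 genes in all. Equal spread gave 30 genes in all, and the dye coefficient 2 other peroxisomal genes lower. Leaving out 1 array gave 0 to 1 members lower, 0 to 2 other peroxisomal genes lower and 0 to 34 genes in all, with 0 without array 2 and 0 without array 4 (940 and 926 at an unadjusted p under 0.05) and 9 without array 3; fewer arrays also leave fewer degrees of freedom. Probes tested singly kept Ehhadh (adjusted p = 0.0105). Ehhadh also passed with equal spread (0.0143), medians over probes (0.00523), the dye coefficient (0.0110) and array medians set to 0 (0.00455). Its ratio was between -3.80 and -3.48 in each fit that kept the deposited orientation. Without the 2 edge spots, an alternative chosen after seeing the data, Pex11a had a mean of -1.83. The cause of the other changes was not tested. No paired analysis was possible because there is 1 group of ratios. Without intensities, no probe could be called above background.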
